A study of Mus musculus with 10 samples.

Results

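The 5 libraries described here, Control 1 to Control 5, were made from primary mouse microglia treated with control gapmers, and they are 5 of the 10 samples of the series. They were picked by their titles. Gapmers are short antisense oligonucleotides whose DNA centre lets RNase H cut the RNA they pair with; the other 5 samples received gapmers against the long noncoding RNA 3222401L13Rik and are not analysed here, so every value below is a level in control cells and none is an effect of the knockdown. The mice were wild type (WT), the cells were kept in DMEM with fetal bovine serum and antibiotics, and total RNA was made into libraries with a stranded pico-input kit. The labels give no strain, age, sex, culture time or number of animals, and no untreated cells, and they do not say whether the 5 controls came from separate cultures or animals, so the spread below is the spread between these libraries, which may be technical.

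Microglia are the resident macrophages of the brain. They depend on signalling through the receptor Csf1r and on the transcription factor PU.1, which the gene Spi1 encodes, and in the healthy brain they carry a surface and receptor set (P2ry12, Tmem119, Siglech) that the brain environment maintains and that is known to be lost in serum culture. Microglia near damage or amyloid take up a different programme, led by Apoe, Trem2, Spp1, Gpnmb and lysosomal proteases, called the damage-associated state.

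Each library held between 4321316 (Control 2) and 5639040 (Control 5) reads over 55471 mouse genes, and 0 to 2 reads on ERCC spike-in entries. Between 40849 and 42073 genes had a read, and 20331 to 22819 had 10 or more. Levels are given as CPM (the reads of a gene scaled to 1e+06 reads per library) after TMM scaling, and per kilobase of the gene's exons in GENCODE M21 (RPKM, the scale used to compare genes of different length); values are mean ± SD over the 5 libraries. The background was read from 1135 olfactory receptor genes, taken here as a set largely silent in microglia. Their density (reads per kilobase, scaled to library size as in CPM) was 0.522, 0.816, 0.580, 0.653 and 0.425 in Controls 1 to 5, highest in Control 2 and lowest in Control 5. A gene was called above background where its reads per kilobase were over 10 times that density in all 5 libraries. By this rule 4772 of 55471 genes stood above background, among them 4436 of 21961 nuclear protein-coding genes (20.2%), 41 of 13128 long noncoding genes and 138 of 5737 small noncoding genes. These 4772 genes held 79.3% of all reads. The median nuclear protein-coding gene had 1.69 RPKM and the median of those above background 16.3 RPKM; 193 reached 100 RPKM and 11 reached 1000 RPKM. Of the olfactory receptors themselves 1 was above background, Olfr111, at 18.1 ± 2.39 RPKM, and it was kept in the set that gave the density. Spread over all annotated exons at the olfactory receptor density, the background would amount to 5.55% of reads in Control 5 and 10.7% in Control 2. In bulk libraries, fewer cells of a type and less RNA per cell cannot be told apart, and this holds for every level below.

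Protein-coding genes of the nucleus took 82.3% ± 0.521 of the reads (SD, n = 5), and the 2 mitochondrial ribosomal RNAs 8.08% ± 0.387. Long noncoding genes took 5.88% ± 0.321, small noncoding genes 1.35% ± 0.162, pseudogenes 0.991% ± 0.146 and the gene models annotated as nuclear rRNA 0.866% ± 0.233. A large part of the long noncoding share lay in the model Gm26917, which ends beside an rRNA gene model and is described below. Whether its reads come from rRNA was not tested. The 13 mitochondrial messenger genes took 0.542% ± 0.00900, all of it on 7 of them, since 6 had 0 reads as described below. The nuclear rRNA models were the least even of these classes relative to their mean: in Controls 1 to 5 the rRNA models held 0.844%, 0.659%, 1.11%, 0.620% and 1.10% of the reads, low in Controls 2 and 4. These shares describe the counted reads and not the RNA of the cell. The 10 genes with most reads in a library held 15.6% to 17.0% of its reads and the top 100 genes 27.6% to 30.0%.

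The mRNA with most reads was Ctsb, which encodes the lysosomal cysteine protease cathepsin B. Its CPM in Controls 1 to 5 was 11583, 9377, 10933, 10572 and 12572 (mean 11008 ± 1187). Spp1, the secreted phosphoprotein osteopontin, had 10469, 8140, 10271, 9458 and 11800 CPM. Apoe, the lipid carrier apolipoprotein E, had 10052, 8483, 9518, 8936 and 10142 CPM. In each of the 3 genes Control 2 was the lowest and Control 5 the highest library. Ferritin heavy chain Fth1 (6903 ± 724 CPM), the membrane glycoprotein Gpnmb (6170 ± 635), lipoprotein lipase Lpl (4435 ± 487), the aspartic protease Ctsd (4301 ± 497), β-actin Actb (4256 ± 381) and lysozyme Lyz2 (3532 ± 406) followed. The other genes of the top 20 were Psap, Mmp12, Lrp1, Vim, Tmsb4x, Tln1, Sirpa, Itm2b, Gm10800, Mpeg1 and Ctss, from the saposin precursor Psap (2521 ± 245 CPM) to cathepsin S, encoded by Ctss (1864 ± 235 CPM). The 20 genes held 8.31% of all reads. Of the 20, 4 were on the list of lysosomal genes and 7 on the list of damage-associated genes. Each library's own top 20 by reads shared 18 or 19 genes with this one.

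**Figure D1:**
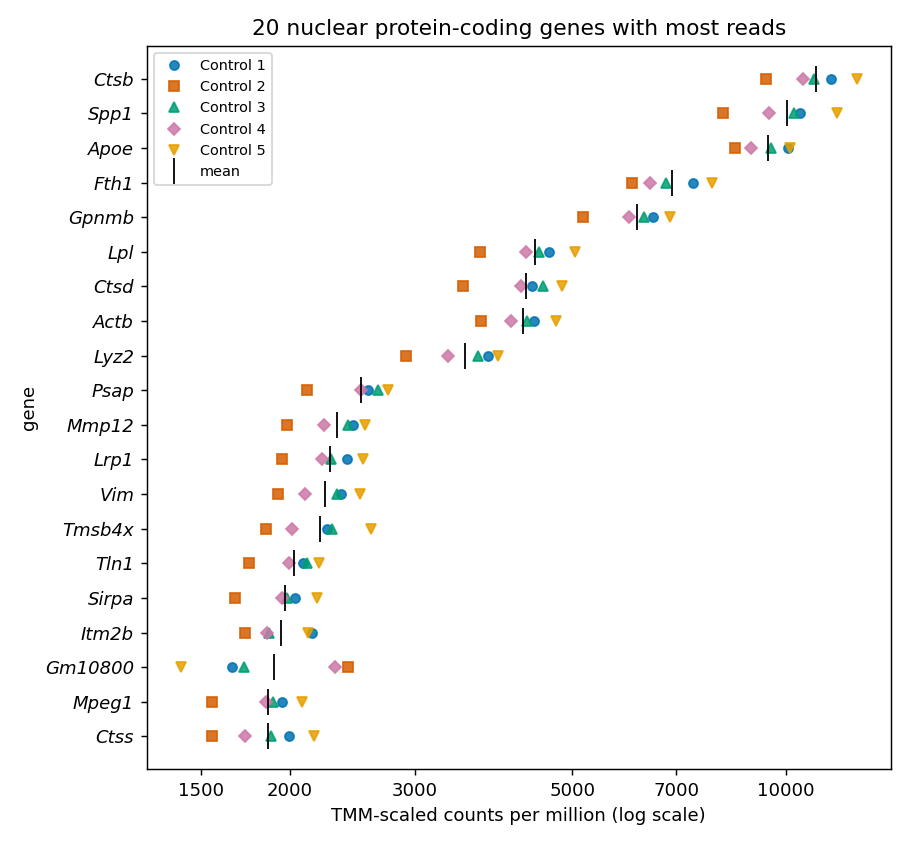
The 20 nuclear protein-coding genes with the highest mean CPM (y axis) and their TMM-scaled CPM in each control library (x axis, log scale), with the mean as a bar. Control 2 is the lowest library for all but Gm10800, and Control 5 is the highest for all but Gm10800 and Itm2b.

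Per kilobase the order changed. Spp1 led with 6353, 4939, 6232, 5739 and 7160 RPKM in Controls 1 to 5, and Apoe was second with 4702, 3968, 4452, 4180 and 4743 RPKM; no library put Apoe above Spp1's lowest value. The predicted gene Gm10800 (2882 ± 666 RPKM), Lyz2 (2684 ± 309), Fth1 (1990 ± 209), Ctsd (1829 ± 212) and Ctsb (1819 ± 196) came next; Fth1 stood above Ctsd and Ctsb in each of the 5 libraries, and Ctsd and Ctsb changed places between libraries. Thymosin Tmsb4x (1607 ± 209), Actb (1589 ± 142), Ctss (1373 ± 173) and the class I light chain B2m (1188 ± 155) completed the 11 genes at 1000 RPKM or more. Among genes of 500 exon bases or more, those that entered the top 20 only per kilobase were B2m, galectin Lgals1 (797 ± 100 RPKM), the asparaginyl protease Lgmn (796 ± 85.5), the adaptors Tyrobp (727 ± 77.6) and Fcer1g (712 ± 60), the macrophage lysosomal protein Cd68 (683 ± 76.4) and cathepsin Z (Ctsz, 676 ± 64.4). The top 20 by CPM and by RPKM shared 13 genes, and 7 lysosomal and 10 damage-associated list genes stood in the second. Of the exon bases of Ctsd 34.4% also belong to another annotated gene, against 18.8% for Spp1 and 12.8% for Ctsb. Per kilobase of exon not shared in this way, a setting chosen after seeing the data, Spp1 had 7494, Ctsd 2789 and Ctsb 2086 RPKM, and the same 20 genes made the top 20.

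The largest falls in rank from CPM to RPKM among the top 100 were in genes with 17997 to 41155 exon bases that encode very large proteins. Dst, a linker of filaments, fell from rank 73 by CPM to rank 1830 by RPKM, Ubr4 from 99 to 778, Ahnak from 61 to 641, Wnk1 from 45 to 545 and Plec from 58 to 532. The largest gains were in genes with 463 to 821 exon bases. The interferon-inducible Ifi27l2a went from rank 1973 to 81, the chemokine Ccl4 from 1309 to 84, the predicted gene Gm10801 from 1206 to 53, Sh3bgrl3 from 1204 to 98 and the cathepsin inhibitor Cstb from 1065 to 59. Across the 4436 nuclear protein-coding genes above background, Spearman's rho between the scales was 0.626, as a description across genes that share exon length in 1 of the scales.

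**Figure D2:**
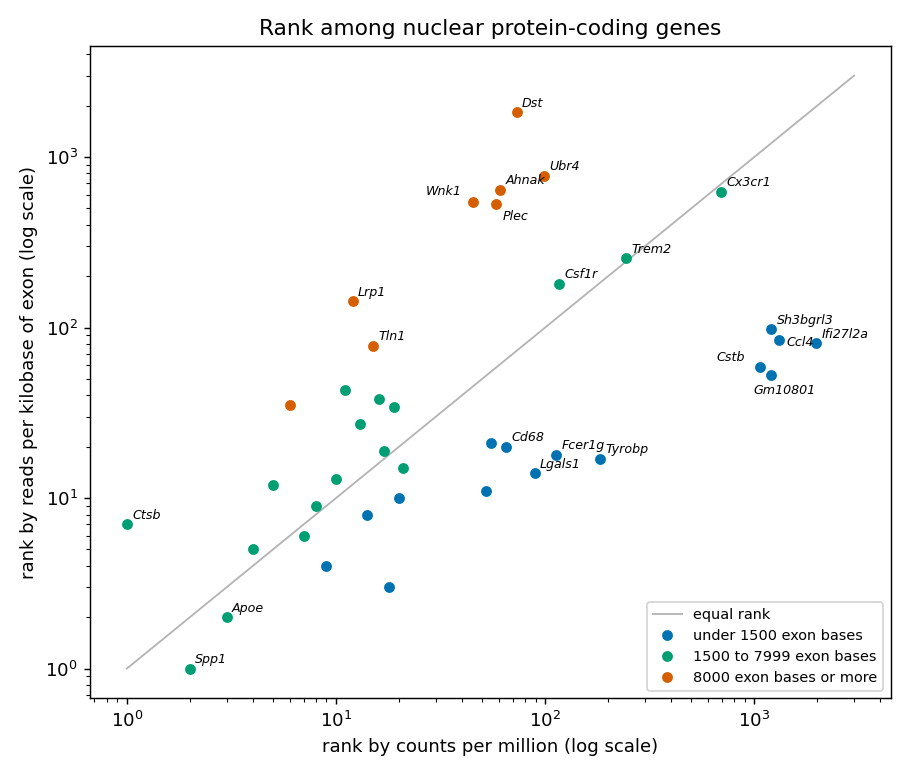
Rank by CPM (x axis) and by RPKM (y axis) among nuclear protein-coding genes, both on log scales with 1 as the highest level, for the leading, marker and most displaced genes, coloured by exon length. Dst, Ubr4, Ahnak, Wnk1 and Plec lie far above the line of equal rank and Ifi27l2a, Ccl4, Gm10801, Sh3bgrl3 and Cstb far below it.

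The 5 marker genes chosen for this report, Csf1r, Trem2, Cx3cr1, Apoe and Ctsb, were all above background. Csf1r, the receptor microglia need to survive, had 111, 96.7, 110, 102 and 114 RPKM in Controls 1 to 5 (chromosome 18, 61100598 to 61132149, GRCm38). Trem2, a lipid-sensing receptor, had 83.9, 67.6, 88.8, 83.3 and 87.3 RPKM, and the fractalkine receptor Cx3cr1 had 47.2, 41.1, 43.9, 42.3 and 48.1 RPKM. The order of the 5 markers was Apoe (4409 ± 334 RPKM), Ctsb (1819 ± 196), Csf1r (107 ± 7.12), Trem2 (82.2 ± 8.44) and Cx3cr1 (44.5 ± 3.05), and no neighbours in this order overlap in any library. Their multiples of the olfactory receptor density ran from 77.7 for Cx3cr1 to 7701 for Apoe. Spi1, which encodes PU.1, had 80.3 ± 6.01 RPKM.

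Beside each list of protein-coding genes below stand 20.2% above background and a median of 1.69 RPKM over all nuclear protein-coding genes. All 20 genes of a list of pan-macrophage markers stood above background, against 20.2% of all nuclear protein-coding genes, with a median of 158 RPKM. They ran from Lyz2 (2684 ± 309 RPKM), Tyrobp, Fcer1g, Cd68, the pore-forming protein Mpeg1 (430 ± 44.7) and the oxidase subunit Cyba (256 ± 28.1) down to Fcgr2b (31.6 ± 2.78), the leukocyte phosphatase Ptprc (30.8 ± 3.41) and the integrin Itgam (25.4 ± 4.35). Itgam has 66.3% of its 50-base windows in the transcripts of another annotated gene, and the part of this in its count was not tested.

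Among 38 genes of the homeostatic microglial signature 24 stood above background and 14 did not, and the list spanned a wide range. Among its highest members were genes also made by other macrophages: Ctss (1373 ± 173 RPKM), Tyrobp (727 ± 77.6), the protease inhibitor Cst3 (666 ± 71.9), and the complement chains C1qa (531 ± 64.2) and C1qb (477 ± 58.7). The lowest members included Tmem119, a marker used to tell microglia from other macrophages. Tmem119 had 10, 21, 8, 17 and 19 reads in Controls 1 to 5, or 1.28 ± 0.514 RPKM, which is 2.19 times the olfactory receptor density. Adora3 (1.11 ± 0.191 RPKM), Crybb1 (1.28 ± 0.687) and the fructose transporter Slc2a5 (1.47 ± 0.266) were as low. Of 3 further genes named after their values were seen, the purinergic receptor P2ry12 had 80, 63, 56, 57 and 48 reads (4.70 ± 0.966 RPKM, 8.06 times the density), the lectin Siglech 1.59 ± 0.572 RPKM, and the transcription factor Sall1 6.70 ± 0.424 RPKM (11.6 times the density, though not over 10 times in every library).

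Of 30 damage-associated genes 29 stood above background, with a median of 220 RPKM, and 16 of them ranked among the 100 highest nuclear protein-coding genes by RPKM. Spp1, Apoe, Fth1, Ctsd, Ctsb and B2m led, all above 1000 RPKM. The lowest were Csf1 (5.15 ± 0.380 RPKM, not above background), the cholesterol hydroxylase Ch25h (10.3 ± 2.18), the cystatin Cst7 (19.5 ± 3.22) and Ank (21.5 ± 1.54). The lists share members: B2m, Tyrobp, Cd68 and several cathepsins are on more than 1 of them.

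The lysosomal list had 26 of 28 genes above background and a median of 159 RPKM, and 14 of its genes were in the top 100 by RPKM. Ctsd, Ctsb, Ctss, Psap (919 ± 89.2 RPKM), Lgmn (796 ± 85.5) and Cd68 led it. Cathepsin K (Ctsk, 4.02 ± 0.645 RPKM) and the proton pump subunit Atp6v0c (6.62 ± 0.982) were not above background, and cathepsins F (Ctsf, 9.39 ± 0.675) and H (Ctsh, 10.1 ± 0.807) were just above it. In the lipid list 23 of 25 genes were above background (median 21.2 RPKM). Apoe and Lpl (423 ± 46.5 RPKM) led it, followed by the lipid droplet coat Plin2 (202 ± 23.9), the scavenger receptor Cd36 (200 ± 15.9), lysosomal acid lipase Lipa (126 ± 13.8) and the cholesterol exporter Abca1 (104 ± 11.6), whereas the desaturase Scd1 (3.23 ± 0.351) and the squalene epoxidase Sqle (7.42 ± 0.700) were not above background. Complement and Fc receptor genes were above background in 15 of 16 cases (median 61.5 RPKM), with Fcer1g, the 3 C1q chains, C3ar1 (221 ± 27.1 RPKM) and Itgb2 (218 ± 17.2) highest and C4b (1.08 ± 0.205) at the background.

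**Figure D3:**
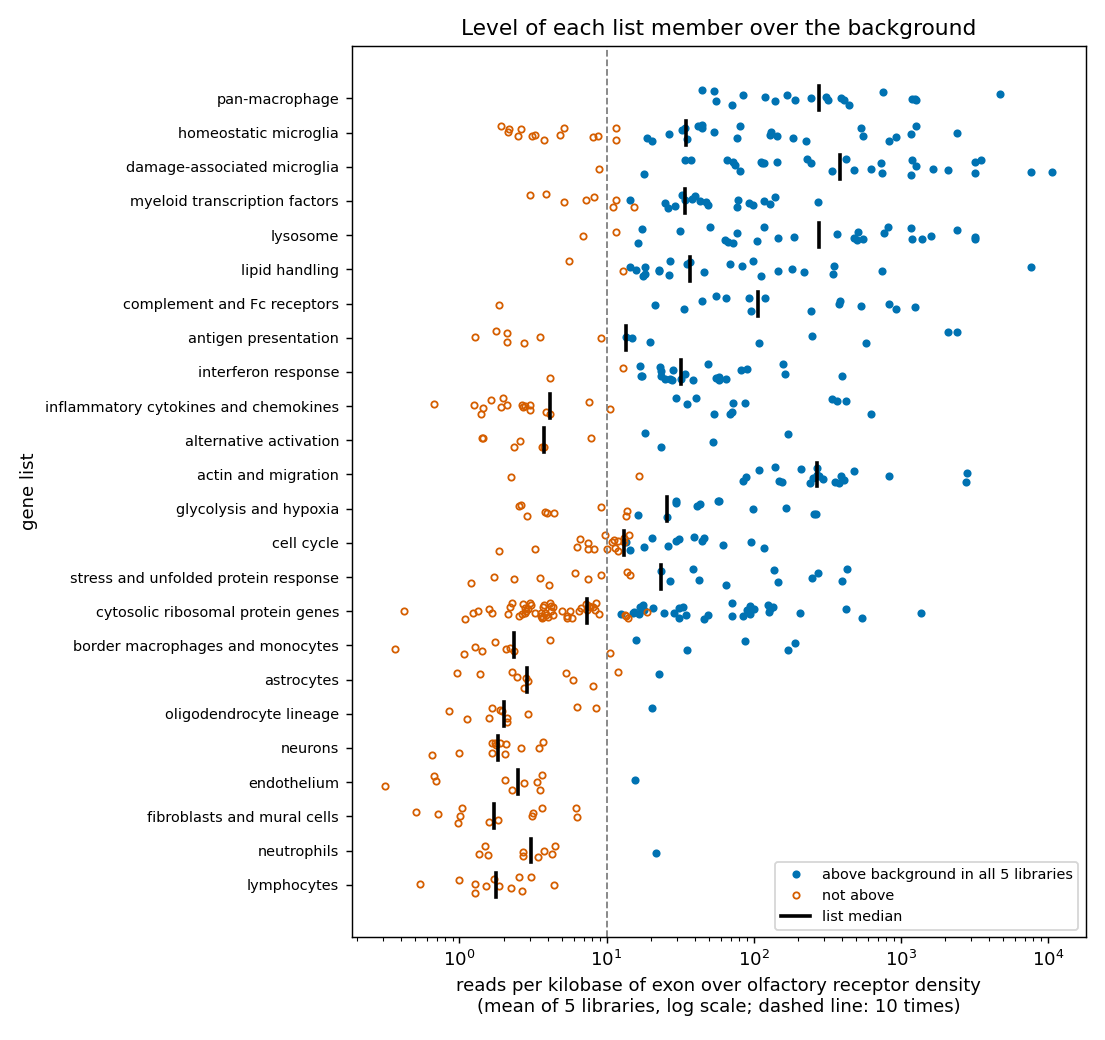
Each point is a gene of a list (y axis) at its reads per kilobase over the olfactory receptor density, averaged over the 5 control libraries (x axis, log scale), filled where it exceeds 10 times the density in all 5 libraries. Pan-macrophage, damage-associated, lysosomal and actin genes lie highest, and genes of other cell types lowest.

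Genes of immune activation were uneven. Of 29 cytokine and chemokine genes 12 stood above background (median 2.46 RPKM). The chemokines Ccl3 (360 ± 36.8 RPKM), Ccl6 (244 ± 24.8), Ccl9 (211 ± 23.3) and Ccl4 (195 ± 20.6) were far above the others, Tgfb1 had 49.7 ± 3.81 and Ccl2 41.3 ± 6.20 RPKM, and Il6 (0.389 ± 0.0910 RPKM), Ptgs2 (0.726 ± 0.177), Il10 (0.807 ± 0.394) and Cxcl11 (0.828 ± 0.156) were at the olfactory receptor level. Interferon-response genes were above background in 23 of 25 cases (median 18.4 RPKM), from the membrane protein Ifitm3 (227 ± 30.8 RPKM), Ifit2 (94.3 ± 10.3), Bst2 (89.7 ± 10.6) and Ifi204 (51.8 ± 5.71) down to Ifi44 (2.35 ± 0.313, not above). On a list of 15 antigen presentation genes 8 were above background. The class I genes B2m (1188 ± 155 RPKM), H2-D1 (334 ± 34.1) and H2-K1 (142 ± 11.8) were high, while the class I peptide transporter genes Tap1 (11.4 ± 1.2) and Tap2 (7.80 ± 0.697) were lower but above background. The class II chains H2-Aa (0.731 ± 0.154 RPKM), H2-Eb1 (1.24 ± 0.371) and H2-Ab1 (1.25 ± 0.413) and the class II activator Ciita (1.04 ± 0.229) were not above it, but the class II invariant chain Cd74 was (8.52 ± 1.07). Of 11 genes of alternative activation 4 were above background: the mannose receptor Mrc1 (98.4 ± 10.9 RPKM), Il10ra (30.5 ± 2.39), Pparg (13.5 ± 1.14) and Il4ra (10.5 ± 1.07). Chil3 (0.853 ± 0.438), Retnla (0.934 ± 0.823), Cd163 (1.40 ± 0.548) and Arg1 (1.48 ± 0.499) were not.

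Of 27 myeloid transcription factor genes 19 were above background (median 19.5 RPKM). The stress-induced Atf3 (158 ± 13.9 RPKM) was the highest, Spi1, Irf5 (67.1 ± 4.46), Jun (56.9 ± 6.52) and Maf (52.9 ± 4.83) were also high, and Klf4 (1.78 ± 0.310), Tfec (2.29 ± 0.481), Sall3 (3.00 ± 0.222) and Klf2 (4.14 ± 1.18) were the lowest. Of 21 stress and unfolded-protein genes 11 were above background, led by heme oxygenase Hmox1 (247 ± 33.1 RPKM), the endoplasmic reticulum chaperones Hsp90b1 (229 ± 20.7) and Hspa5 (142 ± 15.5) and Atf3, and Hspa1a (0.677 ± 0.291) and Nqo1 (0.960 ± 0.251) were lowest. Hspa1a shares 66.3% of its 50-base windows with other annotated transcripts. Of 30 cell cycle genes 13 were above background, with a median of 7.45 RPKM. Over all nuclear protein-coding genes 20.2% were above background and the median was 1.69 RPKM. Ccnd1 (66.7 ± 8.86 RPKM), the cell cycle inhibitor Cdkn1a (54.4 ± 4.95), the proliferation marker Mki67 (35.5 ± 4.58) and the replication helicase chains Mcm3 (26.4 ± 3.35) and Mcm6 (25.5 ± 2.62) led, and Ccnb1 (1.09 ± 0.302) and Tyms (1.88 ± 0.422) were lowest. Actin and migration genes were above background in 21 of 23 cases, with a median of 153 RPKM. Of 67 replication-dependent histone genes 16 were above background (median 3.07 RPKM), a share near the 20.2% of all nuclear protein-coding genes, and 10 had 0 reads. Of 11 polymerase III and other structural RNAs 7 were above background (median 148 RPKM).

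Some genes usually counted among the most abundant were listed near background. Gapdh, named after its values were seen, had 43, 35, 56, 45 and 57 reads in Controls 1 to 5 (2.24 ± 0.396 RPKM). It shares 25.1% of its 50-base windows with transcripts of 223 other annotated genes. Of 21 glycolysis and hypoxia genes 12 were above background: Hk3 (150 ± 19.4 RPKM), Aldoa (147 ± 19.4) and Pkm (94.2 ± 11.0) led, while Bnip3 (1.44 ± 0.369 RPKM, 47.2% of windows shared), Pgk1 (1.49 ± 0.599, 53.9% shared), Egln3 (1.63 ± 0.327, none shared), Pgam1 (2.18 ± 0.155, 36.2% shared), Gapdh and Vegfa (2.52 ± 0.327, 0.182% shared) were the 6 lowest. Of these 6, Egln3 and Vegfa shared no or few windows, and Bnip3, Pgk1, Pgam1 and Gapdh shared 25.1% to 53.9%. Cytoplasmic γ-actin Actg1 had 1.29 ± 0.243 RPKM with 37.4% of its windows shared, beside 1589 RPKM for Actb with 9.12% shared. Of 83 cytosolic ribosomal protein genes 31 were above background (median 4.17 RPKM), with Rplp1 (784 ± 83.9 RPKM) the highest although 60% of its windows are shared. Of the 83, 49 share windows with 10 or more other genes, and 36 of these 49 were among the 52 not above background. The part of shared sequence in these low values was not tested, and low values of such genes are given here as counts only.

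Most markers of neurons, glia, vessels, fibroblasts and blood cells were not above background, and 5 genes of border macrophages and monocytes were. None of 12 neuronal genes stood above it (median 1.07 RPKM; Nefm was the highest at 2.15 ± 0.231), none of 12 fibroblast and mural genes (highest Cspg4, 3.63 ± 0.319), none of 12 lymphocyte genes (highest Cd4, 2.50 ± 0.249) and none of 6 erythroid genes. The astrocyte list had 1 of 12 above, Gfap, at 12.4, 12.9, 12.6, 12.2 and 15.4 RPKM in Controls 1 to 5, and Aldh1l1 followed at 6.96 ± 0.469 RPKM. The summed CPM of the astrocyte list ran from 206 to 230. The oligodendrocyte list had 1 of 12 (Cnp, 11.8 ± 1.19 RPKM), the endothelial list 1 of 10 (Flt1, 9.00 ± 0.745) and the neutrophil list 1 of 10 (Mmp9, 12.6 ± 1.31), while Mog, Cldn5 and S100a9 were under 1 RPKM. Of 15 genes of border macrophages and monocytes 5 were above background: Stab1 (109 ± 11.2 RPKM), Mrc1, Ms4a7 (50.8 ± 3.25), Pf4 (20.3 ± 2.93) and Ms4a6b (9.05 ± 1.05). The monocyte genes Ly6c2 (0.215 ± 0.166 RPKM) and Plac8 (0.769 ± 0.222) and the border macrophage marker Lyve1 (0.620 ± 0.190) were at the olfactory receptor level.

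Noncoding RNA was dominated by a few gene models. Some are short enough to print whole, and they are shown because they hold many reads, share sequence with other models or differ between libraries as described further on. The sequences are those of the GENCODE M21 transcripts, 5′ to 3′, on GRCm38. In the 4 models of 5S-type rRNA the capitals mark the longest run that all 4 share, of 25 bases:
n-R5s56 (chr13:103396202-103396306, plus strand): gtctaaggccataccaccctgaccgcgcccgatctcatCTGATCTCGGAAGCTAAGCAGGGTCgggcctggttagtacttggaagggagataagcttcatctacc
Gm26197 (chr14:78311226-78311340, minus strand): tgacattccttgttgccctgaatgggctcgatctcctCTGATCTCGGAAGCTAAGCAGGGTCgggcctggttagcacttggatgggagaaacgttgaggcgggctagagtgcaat
n-R5s62 (chr12:82150468-82150563, plus strand): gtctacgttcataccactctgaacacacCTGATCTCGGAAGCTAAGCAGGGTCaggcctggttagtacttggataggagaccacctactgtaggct
n-R5s115 (chr8:123564286-123564404, minus strand): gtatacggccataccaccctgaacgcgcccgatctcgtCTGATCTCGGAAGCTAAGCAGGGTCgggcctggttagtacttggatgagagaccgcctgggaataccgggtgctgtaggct
The Y RNA Rny3, a small RNA that binds the Ro protein (chr6:47781624-47781725, plus strand): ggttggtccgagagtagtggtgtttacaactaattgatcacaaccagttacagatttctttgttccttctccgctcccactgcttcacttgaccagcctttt
Bc1, a small cytoplasmic RNA best known from neurons (chr7:144914470-144914637, plus strand): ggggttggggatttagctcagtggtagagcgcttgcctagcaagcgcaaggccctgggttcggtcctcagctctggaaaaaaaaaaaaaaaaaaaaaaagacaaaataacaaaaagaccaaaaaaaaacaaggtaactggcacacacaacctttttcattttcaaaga
Gm23935, annotated as a miRNA, whose 57 bases are identical to those of Gm24245 and Gm24270 (chr16:11144125-11144181, plus strand): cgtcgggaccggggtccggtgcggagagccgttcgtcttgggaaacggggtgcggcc

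The long noncoding model with most reads was Gm26917 (chromosome 17, 39843013 to 39846341), at 27606, 23087, 26227, 25088 and 29045 CPM in Controls 1 to 5. Its model ends beside the rRNA gene model CT010467.1 (39846353 to 39848827), which had 4037 ± 1097 CPM, and the 2 long noncoding models annotated within its span, Gm42418 and AY036118, had 0 reads in all 5 libraries, with 99.5% and 100% of their exon bases inside other genes' exons. The nuclear RNA Malat1 had 8226, 6432, 7116, 7499 and 8543 CPM (1083 ± 122 RPKM) and the paraspeckle RNA Neat1 353 ± 42.6 CPM (17.0 ± 2.05 RPKM). Gm37194, a model to be experimentally checked, had the highest CV of the leading 12 (33.0%), with 2800, 4041, 6872, 6924 and 6429 reads in Controls 1 to 5: Controls 1 and 2 were low and the other 3 high. Bc1 (173 ± 38.1 CPM), the X-inactivation RNA Xist (171 ± 14.5), Ifi30 (143 ± 16.4), Kcnq1ot1 (142 ± 7.49), Cct6a (132 ± 11.8), 1700020I14Rik (105 ± 13.3), Gm14636 (77.8 ± 10.0) and Trerf1 (74.5 ± 5.41) completed the 12. Ifi30 is typed as a processed transcript in M21. The long noncoding class was set by M21 gene type alone, processed transcripts among them. Ifi30, Cct6a and Trerf1 carry names of protein-coding genes, so their place in this class rests on that typing. Per kilobase Kcnq1ot1 (1.52 ± 0.0804 RPKM, over 93092 exon bases) was not above background. Among 18 measured genes of a list of nuclear and host long noncoding RNAs only Malat1, Neat1, Gas5 (10.2 ± 1.66 RPKM) and Xist were above background. 3222401L13Rik, the target of the other gapmers (chromosome 18, 37655451 to 37661742), had 30, 29, 28, 33 and 34 reads in Controls 1 to 5, so that 3222401L13Rik had 0.962 ± 0.0716 RPKM, 1.67 times the olfactory receptor density, and was not above background by the 10-fold rule.

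Of the other noncoding genes, Gm23935 led with 4608, 3654, 5968, 3360 and 5274 CPM, while Gm24245 (80.6 ± 9.82 CPM) and Gm24270 (26.99 ± 4.26 CPM) hold the same 57 bases. These bases alone do not tell the 3 models apart. The transcription regulator 7SK (Rn7sk) had 4252 ± 328 CPM, the rRNA model Gm24601 1975 ± 763, n-R5s56 669 ± 250, the 5.8S model n-R5-8s1 605 ± 197, the vault RNA Vaultrc5 578.5 ± 156 and Gm26197 495 ± 192 CPM. Above background were 69 of 1507 snoRNA models, 22 of 1385 snRNA models, 49 of 354 rRNA models and 19 of 2207 miRNA models; mature miRNAs are too short for this kind of library, so the last are reads on precursor models. The telomerase RNA Terc was at 0.0923 RPKM and Snora73b, all of whose windows occur in other transcripts, had 0 reads.

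Of the 13 mitochondrial messenger genes 7 were counted and 6 had 0 reads in all 5 libraries. Among the counted, mt-Co1 had 1478, 1270, 1359, 1318 and 1590 CPM in Controls 1 to 5, and mt-Nd5 (1151 ± 102 CPM), mt-Nd1 (1036 ± 87.9), mt-Cytb (763 ± 54.1), mt-Nd4, mt-Nd2 and mt-Nd6 (317 ± 25.8) followed. The genes at 0 were mt-Co2, mt-Atp8, mt-Atp6, mt-Co3, mt-Nd3 and mt-Nd4l, which lie next to each other in the mitochondrial genome except for tRNA genes. Except for mt-Atp8, between 98.0% and 100% of their 50-base windows also occur in other annotated transcripts (mt-Nd3 98.0%, mt-Nd4l 98.8%, mt-Atp6 99.5%, mt-Co3 99.86%, mt-Co2 100%), against 0% for mt-Nd1 and mt-Cytb and 51.1% for mt-Co1. For mt-Atp8 0% of the windows occur in another annotated transcript, and it also had 0 reads. Of the mitochondrial pseudogenes annotated in a row on chromosome 1, Gm10925, Gm28661 and Gm28437 had 0 reads and Gm28438 1 read or none in each library. The pair mt-Nd3 and Gm28438 is shown because 345 bases of the gene differ from the copy at 1 base; capitals mark that base in the 120 bases from the start:
mt-Nd3 (chrM:9459-9806, plus strand): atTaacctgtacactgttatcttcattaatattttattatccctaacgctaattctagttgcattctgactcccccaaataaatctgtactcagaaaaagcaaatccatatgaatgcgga
Gm28438 (chr1:24612775-24613119, minus strand): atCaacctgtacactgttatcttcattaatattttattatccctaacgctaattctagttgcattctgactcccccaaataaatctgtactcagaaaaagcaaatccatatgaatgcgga
The 6 genes are only listed at 0, and the part of the copies in this was not tested. The mitochondrial ribosomal RNAs had reads in every library, mt-Rnr2 at 61108 ± 6698 CPM and mt-Rnr1 at 20081 ± 2495 CPM.

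The counts also show how overlapping genes were treated. Of 253 genes of 200 or more exon bases that lie wholly inside exons of genes on the other strand, 250 had 0 reads in all 5 libraries, and of 219 that lie wholly inside exons on the same strand all 219 had 0 reads. Among 37764 genes that share no exon with another gene 9.49% had 0 reads. The setting of the counter is not given, so levels of genes whose exons overlap others, on either strand, are uncertain.

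The libraries were alike in rank and differed by a shift that ran opposite ways at high and low level. Between pairs of libraries, Spearman's rho over genes with a mean of 10 or more reads ran from 0.941 (Controls 2 and 5) to 0.957 (Controls 1 and 3), as a description across genes. The 5 counts of each such gene were compared with counting error alone (chi-square with 4 degrees of freedom, Benjamini-Hochberg adjustment over 21301 genes). At an adjusted p under 0.05 5107 genes (24%) spread more than counting error allows. Genes with spread beyond counting error numbered 2364 without Control 2 and 3366 without Control 5. Among the nuclear protein-coding genes of 1000 CPM or more 52 of 52 were called, and their median coefficient of variation (CV) was 10.2%. Of these 52, Control 2 was the lowest library for 51 and Control 5 the highest for 50. At low level the order was the other way: Control 2 was the highest library for 274 of the 423 called coding genes under 5 CPM, for 452 of 771 from 5 to 20 CPM, and for 230 of 417 called long noncoding genes. Control 5 was the highest for 10, 79 and 33 of these. The size of the shift in abundant genes depended on the scaling. With library totals alone the median CV of these 52 genes was 3.85%, and with a scaling set by the 3363 genes that draw less than 5% of their reads from background, chosen after seeing the data, it was 3.03%. Among those 3363 genes 72.1% were called under TMM, 22.5% with library totals and 18.6% with the scaling set by them. That scaling is fitted to the medians of these same genes, so a lower spread in them is partly built in. When they were scaled, tested and adjusted on their own, 592 genes (17.6%) were called. The background was highest in Control 2 and lowest in Control 5; its part in the shift was not tested. By library totals Ctsb had a CV of 3.70% in place of 10.8%, and Apoe 1.94% in place of 7.58% with Control 1 as the highest library.

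**Figure D4:**
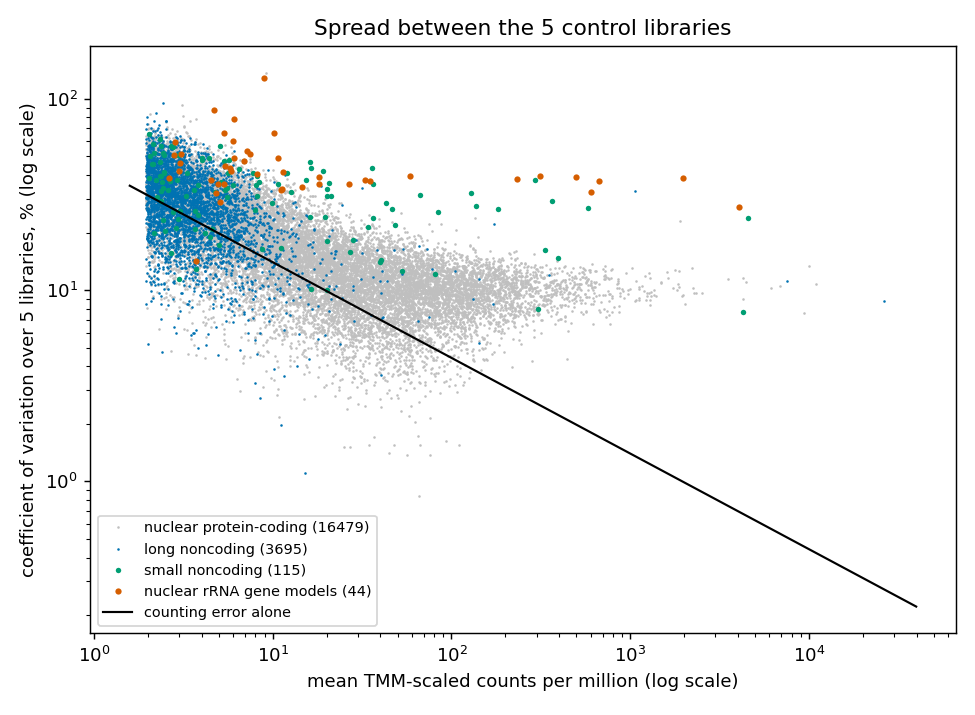
Coefficient of variation over the 5 control libraries (y axis) against mean TMM-scaled CPM (x axis), both on log scales, for every tested gene of 4 classes, with the line that counting error alone would give. The median CV is 10.2% for protein-coding genes of 1000 CPM or more and 39.6% for nuclear rRNA gene models.

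Spread was wide in rRNA and other small RNA models, whose median reads per library (37.5 and 28.2) were below those of coding genes (68.4). Of 44 nuclear rRNA models tested 39 were called, with a median CV of 39.6%, and of the small noncoding models 67 (58.3%), with a median of 32.7%. Among the called rRNA models Control 5 was the highest library for 36 and Control 3 for 3, and Control 4 was the lowest for 23 and Control 2 for 16. The pattern was kept under every scaling tried: the median ratio of the rRNA models to their mean was 1.39 in Control 5, 1.23 in Control 3, 0.742 in Control 2 and 0.646 in Control 4 with library totals. Several RNAs printed above show it, and so does Gm23935, whose values are given above. In Controls 1 to 5 n-R5s56 had 694, 443, 841, 394 and 972 CPM, Gm26197 490, 310, 643, 303 and 728, and Rny3 292, 201, 383, 169 and 420. The 5S model n-R5s62 had 311, 204, 397, 179 and 470 CPM, and n-R5s115 231, 150, 309, 138 and 333 (both named for their printed sequence). For Rny3 and the 4 models of 5S type Controls 2 and 4 were low and Controls 3 and 5 high. Rn7sk, 331 bases long, differed less, from 3810 to 4568 CPM. The 2 libraries with the lowest rRNA share, Controls 2 and 4, also had the highest olfactory receptor density; the part of RNA quality or input in this was not tested.

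**Figure D5:**
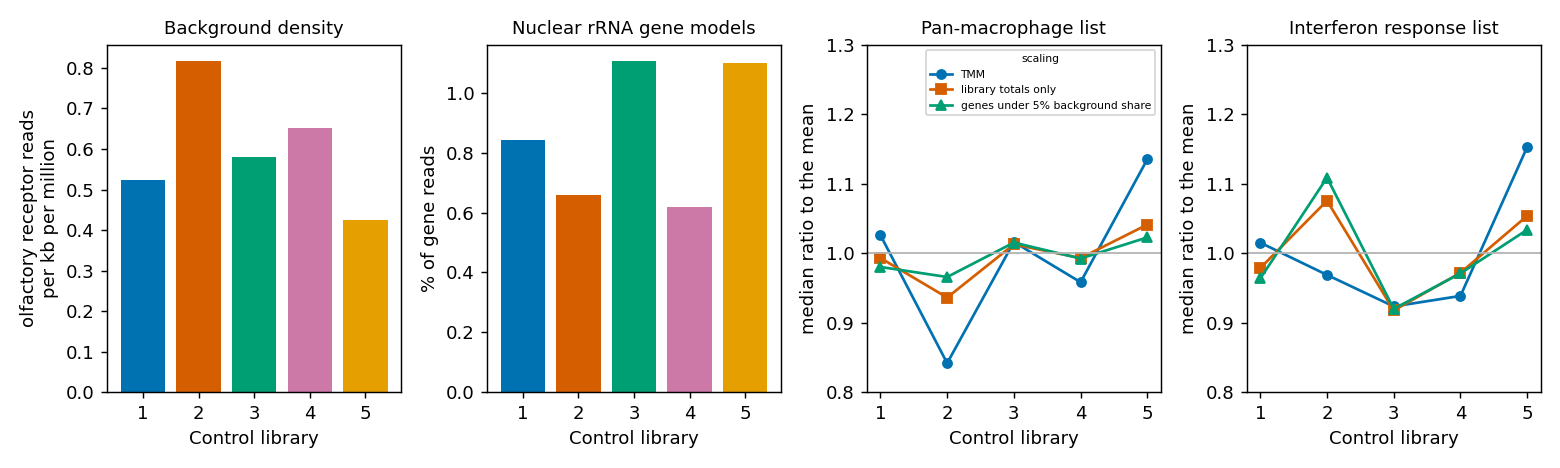
For Controls 1 to 5 (x axes), from left: olfactory receptor density, share of gene reads on nuclear rRNA models, and the median ratio of a gene to its mean over the 5 libraries for the pan-macrophage and interferon-response lists under 3 scalings (lines). The background is highest and the rRNA share low in Control 2; in Control 2 the interferon ratio lies above the macrophage ratio under each of the 3 scalings.

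Protein-coding genes with the largest spread beyond counting error, among called genes of 20 CPM or more, were of 3 kinds. The predicted genes Gm21738 (excess CV 24.6%, that is the CV left after counting error is taken off), Gm10801 (23.6%) and Gm11168 (26.7%) were highest in Control 4 and lowest in Control 5 under TMM; on the low-background scaling Gm21738 (74.4 against 70.3 CPM) and Gm10801 (180 against 177) were highest in Control 2. They share 32.0%, 17.1% and 53.6% of their windows with 11 or 12 other genes. Gm10800 had 1659, 2412, 1721, 2315 and 1402 CPM in Controls 1 to 5, high in Controls 2 and 4 and lowest in Control 5. Grin2b, Dnah1, Dnm3, Dnah9, Ryr3, Muc16 and Dnah11, very long genes of neurons, cilia or epithelia, had excess CVs of 23.4% to 27.1%, were all highest in Control 2, and stood at 1.40 to 3.06 times the olfactory receptor density; the part of the background was not tested. Without Control 2, Dnm3, Ryr3 and Dnah11 were no longer called. Tnfrsf26 (27.1%) and Tmbim4 (23.3%) were highest in Control 5 and lowest in Control 2. The steadiest genes of 100 CPM or more under TMM were Tbc1d22a (110 ± 1.71 CPM), Ints1 (108 ± 3.18), Foxn3 (104 ± 3.31), Sec24b (116 ± 3.72), the phagocytic bridge protein Mfge8 (117 ± 3.88), Kif21b (126 ± 4.37), Idh2 (112 ± 3.98) and D5Ertd579e (108 ± 3.94), whose spread on this scale is no more than counting error gives. The TMM factors ran from 0.914 in Control 5 to 1.11 in Control 2, so other genes may be steadiest with library totals.

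Once scaled on genes with little background, some interferon-response genes were highest in Control 2. This scaling and this comparison were chosen after seeing the data. Of 20 list genes tested 9 were called, and all 9 were highest in Control 2. Over all genes tested in this way 17.6% were called, and Control 2 was the highest library for 118 of those 592. A raised share of calls was not particular to this list: 12 of 20 pan-macrophage, 9 of 15 complement and Fc receptor, 16 of 28 damage-associated and 11 of 24 lysosomal genes were called. Mx1, an antiviral GTPase, had 73, 107, 53.2, 66.3 and 79 CPM on this scale in Controls 1 to 5 (adjusted p = 3.34e-18, chi-square). Ifit1 had 56.6, 83.0, 51.5, 57.0 and 55.2 CPM, Rsad2 142, 194, 134, 129 and 138, and the ubiquitin-like Isg15 31.6, 47.5, 32.9, 33.6 and 36.8. In all 4 genes Control 2 was the highest library. Irf7 (adjusted p = 0.103), Ifitm3 (adjusted p = 0.198) and Bst2 (adjusted p = 0.521) did not pass this chi-square test. Ifitm3, the highest gene of the list, had 155, 143, 162, 148 and 161 CPM, lowest in Control 2, and Bst2 had 78.6, 78.9, 77, 85.4 and 85.6, highest in Control 5. By library totals Control 2 was also the highest library for 13 of the 23 list genes above background and Control 5 for 8, with a median ratio of 1.08 in Control 2 against 0.969 for the genes with little background. The list's ratio was under 1 with TMM (0.969 against 0.872) and with DESeq2 size factors (0.926 against 0.832), where those genes were lower still. The chi-square measures counting error only, so these p-values compare libraries and not conditions. Of 12 cytokine and chemokine genes tested in this way 1 was called (Ccl6).

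The 5 libraries were sequenced on 2 lanes named in the files, 3 on lane 7 (Controls 1 to 3) and 2 on lane 8 (Controls 4 and 5). With edgeR's quasi-likelihood test and Benjamini-Hochberg adjustment 1 of 23187 genes (0.00431%) differed at an adjusted p under 0.05, and 763 had an unadjusted p under 0.05. The gene was Gm25675, an rRNA model of 118 bases on chromosome 12 named here after its values were seen, with 18, 8, 24, 34 and 72 reads in Controls 1 to 5 (log2 change 1.61 in lane 8, edgeR adjusted p = 0.0360); Control 4 and Control 5 were the highest, but Control 5 held most of the difference. DESeq2 called 0 genes, with 196 at an unadjusted p under 0.05. For single values such as a read share, 3 libraries against 2 cannot give an exact permutation p below 0.1, and none was computed.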

How the data were processed

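RNA of 5 control-gapmer samples was sequenced by the authors, and the deposited values are whole-number read counts per gene, 1 table per sample with Ensembl gene identifiers. No source used here gives the aligner, the counter, the annotation release or the strand setting. Only bcl2fastq and the builds GRCm38 and mm10 are named, per the submitters' processing notes; lanes are those in the file names. Genes were matched to GENCODE M21, which left 241 of 55471 identifiers unmatched (0.0117% to 0.0199% of reads). ERCC entries were left out. The samples were grouped by their titles; the knockdown samples are not analysed here.

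Counts were scaled with edgeR 4.0.16 (TMM; R 4.3.3) and divided by union exon length. Spread was tested with a chi-square in scipy 1.17.1 over genes with a mean of 10 or more reads, and lanes with edgeR's quasi-likelihood test after filterByExpr; DESeq2 1.42.0 was an alternative. Totals of 4321316 to 5639040 reads set the precision. Both tests were checked on simulated counts. The share of 50-base windows was taken over GENCODE M21 transcripts on both strands, for list genes and the genes with most reads.

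The libraries, lists and rules were chosen with earlier results of these data known. Named genes are the 5 markers, the 20 leading coding genes by CPM and by RPKM, the 12 leading long and 8 other noncoding genes, up to 6 highest and 4 lowest of each list, the 12 most variable called coding genes of at least 20 CPM, the 8 steadiest of at least 100 CPM, the 5 largest rank moves each way and lane calls of at least 10 CPM (none). Other scalings, background multiples, exon lengths, count filters and leaving out each library were tried. Some genes that this rule names are not reported here.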

Additional observations from a re-analysis of the deposited data

Results flagged for a closer look

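Of 238 measures screened over the 5 libraries, 6 had a library far from the other 4, where chance gives about 1 in 20. At that rate chance would flag more than 6 of 238, so these 6 are not an excess. Trem2 was low in Control 2 (335 CPM), as were the scavenger receptor Stab1 (920 CPM) and the kinesin Kif21b (118 CPM). The chemokine Ccl2 (59.6 CPM) and the astrocyte filament gene Gfap (65.0 CPM) were high in Control 5. Aldh1l1, another astrocyte gene, was high in Control 1 (35.1 CPM). These values are TMM-scaled, and under TMM most abundant genes were lowest in Control 2. In the chi-square test for spread under TMM, Gfap (adjusted p = 0.0688) and Aldh1l1 (adjusted p = 0.685) were not called. Kif21b is among the steadiest genes listed above. On the scaling set by genes with little background, chosen after seeing the data, Trem2 had 397, 384, 439, 427 and 389 CPM in Controls 1 to 5, with Control 2 lowest and next to Control 5. On that scaling Gfap stood at 1.13 times its mean in Control 2 and at 1.06 times in Control 5. By library totals Control 2 was also the highest library for Gfap.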

How the results depend on the processing

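The 20 leading genes by CPM or by RPKM shared 18 to 20 members with each alternative run. With mitochondrially encoded genes left out of the total, nuclear protein-coding genes held 90.0% and long noncoding genes 6.43% of the reads. The number of genes above background depends on the multiple: 8040 at 5 times, 2327 at 20 times and 21791 at 1 CPM or more in all libraries. It was 5677 without Control 2 and 4787 to 4828 when any other library was left out. With vomeronasal receptors as the background it was 6697, and with the longest transcript as length 6024. At the 2 other multiples and at 1 CPM, the counts of nuclear protein-coding genes above background were 7198, 2154 and 16570. Those of long noncoding genes above background were 227, 12 and 3949, and 116 with vomeronasal receptors as the background. Genes with spread beyond counting error numbered 3143 at an adjusted p under 0.01, 564 with the background subtracted and 592 without subtraction (both over genes with a background share under 5%), and 1418 when an SD of 5% was added to the counting error. The last 2 were chosen after seeing the data. Leaving out 1 library gave 2364 (without Control 2) to 5211 calls (without Control 3). Between lanes 0 genes were called with library totals (718 at an unadjusted p under 0.05), 2 with DESeq2 size factors in edgeR, 0 with DESeq2 (196 at an unadjusted p under 0.05) and 0 to 4 when 1 library was left out. With the longest transcript as length, the median was 32.4 RPKM for myeloid transcription factors, 1.87 for neurons and 4.89 for host long noncoding RNAs. The causes were not tested. At this depth, genes with a few reads are described against the background only. No paired analysis was possible because only the control libraries enter and each number occurs once.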
